A study of Mus musculus with 15 samples.

Results

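Transcripts of 8 genes tied to iron-recycling tissue macrophages (Spic, Cd5l, Cd163, Hmox1, Slc40a1, Vcam1, Timd4 and Vsig4) were followed in mouse adrenal glands through a course of dexamethasone and the recovery from it. They were chosen by gene symbol, and each was read by 1 probe set, so that 8 of the 21439 genes measured are described here. RNA from whole adrenal glands of wild-type male C57BL/6J mice was hybridised to 15 one-colour Affymetrix arrays. Control glands (4 arrays) came from mice not yet given dexamethasone, a synthetic glucocorticoid that lowers pituitary ACTH and thereby shrinks the adrenal cortex. Withdrawal glands (3 arrays) were taken when 14 days of dexamethasone in the drinking water ended, and the day 3 and day 7 glands (4 arrays each) 3 and 7 days later. No other drug or allele is named, and the design asks how the gland regenerates. Each array is titled as a biological replicate. Nothing says how many glands or animals went into one. If a title marks no separate animal, the p-values measure only the spread between arrays. No group was kept untreated for the same number of days, so that drug, recovery and elapsed time cannot be told apart in a comparison with control. Every array is labelled with the same age, 6 weeks, without a word on whether it was reached at the start or at collection. Withdrawal glands were taken 14 days after the drug began, so that 1 age at collection would need mice started at different ages.

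Red pulp macrophages of the spleen and Kupffer cells of the liver engulf old red cells, split the heme and return the iron to the blood. Spic encodes the ETS-family transcription factor SpiC, which mouse red pulp macrophages need to develop. In cultured macrophages heme removes the repressor BACH1 from Spic, Hmox1 and Slc40a1. CD163 takes up haemoglobin bound to haptoglobin, heme oxygenase 1 (Hmox1) opens the heme ring and ferroportin (Slc40a1) exports the iron. Vcam1 is an adhesion molecule of both red pulp macrophages and activated endothelium, Cd5l encodes a secreted protein of tissue macrophages, Timd4 a receptor for phosphatidylserine on dying cells, and Vsig4 a complement receptor. The genes are thus markers of a cell state, and several of them also have other sources in a gland: Hmox1 is inducible in most cells.

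Windows of 300 bases around the gene start (250 before it and 50 after it, RefSeq, GRCm38.p6) were at hand for 5 of the 8, namely Spic, Cd5l, Cd163, Timd4 and Vsig4. The windows of Spic and Cd5l, which both rose and fell past the threshold, are set here beside that of Cd163, which did not pass the test in any comparison. They lie at chr10:88682974-88683273 (minus strand), chr3:87357631-87357930 (plus strand) and chr6:124304401-124304700 (plus strand). Capitals mark TGCTGA or its reverse complement TCAGCA, a core of the sites that MAF proteins recognise.
Spic: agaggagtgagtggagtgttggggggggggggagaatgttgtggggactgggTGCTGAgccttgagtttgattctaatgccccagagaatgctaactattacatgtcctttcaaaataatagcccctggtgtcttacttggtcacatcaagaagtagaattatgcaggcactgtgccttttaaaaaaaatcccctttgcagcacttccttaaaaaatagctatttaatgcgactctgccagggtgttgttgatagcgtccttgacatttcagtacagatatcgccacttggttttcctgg
Cd5l: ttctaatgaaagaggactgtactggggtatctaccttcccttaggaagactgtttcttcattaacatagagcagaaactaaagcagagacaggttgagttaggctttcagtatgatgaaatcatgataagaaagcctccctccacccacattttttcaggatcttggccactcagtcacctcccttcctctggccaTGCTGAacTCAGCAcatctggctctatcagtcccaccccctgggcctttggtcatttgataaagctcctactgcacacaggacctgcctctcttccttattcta
Cd163: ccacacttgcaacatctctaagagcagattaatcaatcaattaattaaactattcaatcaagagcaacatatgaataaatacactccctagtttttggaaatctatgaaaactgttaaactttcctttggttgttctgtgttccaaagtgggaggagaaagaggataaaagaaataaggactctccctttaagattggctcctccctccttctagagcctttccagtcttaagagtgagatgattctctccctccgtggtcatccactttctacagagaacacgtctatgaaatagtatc
Searched on both strands, this core is in 19.5% of 32851 such windows, and in 4 of the 5 at hand, Cd163 being the exception. Timd4 (2 matches) and Vsig4 (1 match) hold it too and, like Cd163, did not pass in any comparison. The core thus did not separate the members that passed from those that did not. In Cd5l 2 cores face each other as TGCTGAACTCAGCA, which begins 54 bases before the gene start. It matches the palindromic MAF recognition element TGCTGANNTCAGCA, which 2 of the 32851 windows contain (0.00609%). The shorter form TGCTGANTCAGCA is in 2 windows, none of them from the 5. The ETS motif GAGGAA is in 28.3% of windows, and among these genes in Cd5l (1 match) and Vsig4 (2 matches). Shorter ETS cores were not searched for. The palindrome was looked for after the Cd5l sequence had been read. The windows counted for its longer form include that of Cd5l itself, so that its rarity is no test. A match is a description of letters, not of binding.

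The values deposited were log2 levels after robust multi-array averaging, and each array is centred low: the median over all probe sets and arrays was 1.60. A group whose mean was at or under that value is called at the floor, where a fall has little room to be seen. Of the 32 group means of the 8 genes, 10 were at the floor. As a median, the floor has as many of all probe set values under it as over it. Vsig4 was there in all 4 groups, Cd5l in control, day 3 and day 7, and Timd4 in control, day 3 and day 7, with a withdrawal mean only 0.10 above it. Spic, Cd163, Hmox1, Slc40a1 and Vcam1 were above the floor in every group, Spic by between 0.49 (day 3) and 2.28 (withdrawal). A stricter bound, the 95th percentile of the group means of 1368 olfactory and vomeronasal receptor genes (1.43), puts 6 of the 32 means in the range of genes that are silent here: the 4 of Vsig4 and those of Cd5l in control and at day 3. By the floor of 1.60 no group mean of Vsig4 was above it, and that of Timd4 was in 1 group only. By the stricter bound no group mean of Timd4 was in the silent range.

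At withdrawal Spic, Slc40a1, Vcam1 and Cd5l were higher than in control, while Hmox1, Cd163, Timd4 and Vsig4 did not pass the test. The 4 that rose are a transcription factor, an iron exporter, an adhesion molecule and a secreted macrophage protein. Against these 4 of 8, 2.49% of all genes were called higher and 1.81% lower (limma, adjusted p under 0.05), and the median member differed by 0.84 log2 where the median gene differed by -0.01. The members were chosen with such results known, so that their share is a description.

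Spic stood at 2.41, 2.51, 2.45 and 2.80 in the control arrays and at 4.44, 4.13 and 3.07 at withdrawal. All withdrawal arrays lay above all controls, with withdrawal replicate 3 nearest to them. The difference was 1.34 ± 0.25 log2 (SE), or 2.53-fold (limma, adjusted p = 0.00681). How many of all genes separate 2 groups without overlap was not counted. Separation of arrays, here and below, is therefore a description and not a test. Slc40a1, the only known cellular iron exporter of mammals, read 3.22, 4.27, 3.75 and 4.35 in control and 6.24, 6.37 and 5.57 at withdrawal. These groups did not overlap either, and the rise of 2.16 ± 0.38 log2 was 4.48-fold (adjusted p = 0.00465). Vcam1 went from 5.27, 5.44, 5.12 and 4.68 to 6.88, 6.86 and 6.23, a rise of 1.53 ± 0.23 log2 and 2.88-fold (adjusted p = 0.00152). Its control spread of 0.32 (SD) and withdrawal spread of 0.37 are small beside that difference. Cd5l was at the floor in every control array (0.90, 0.87, 1.28 and 1.02) and above it in every withdrawal array (2.28, 4.34 and 2.85). Its difference of 2.14 ± 0.42 log2 (adjusted p = 0.00977) starts from a mean at the floor, and without withdrawal replicate 2 it was 1.55 (adjusted p = 0.0459).

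The heme-degrading and haemoglobin-scavenging genes did not pass at withdrawal. Hmox1 read 8.87, 9.07, 8.86 and 8.48 in control and 8.66, 9.0 and 7.86 at withdrawal. The groups overlap, and the difference of -0.31 has a 95% interval from -0.88 to 0.25 (adjusted p = 0.612). Cd163 was at 2.78, 1.92, 2.02 and 2.33 in control and at 2.84, 2.45 and 1.74 at withdrawal, a difference of 0.08 with an interval from -0.46 to 0.62 (adjusted p = 0.922). The interval leaves no room for a rise of the size seen in Spic. Timd4 was at the floor in withdrawal replicates 2 and 3 (1.16 and 1.17) and at 2.76 in replicate 1, so that its group mean of 1.70 ± 0.92 (SD, n = 3) describes none of the arrays. Vsig4 differed by 0.35 (interval from 0.00 to 0.70, adjusted p = 0.297), all of it under the floor.

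**Figure D1:**
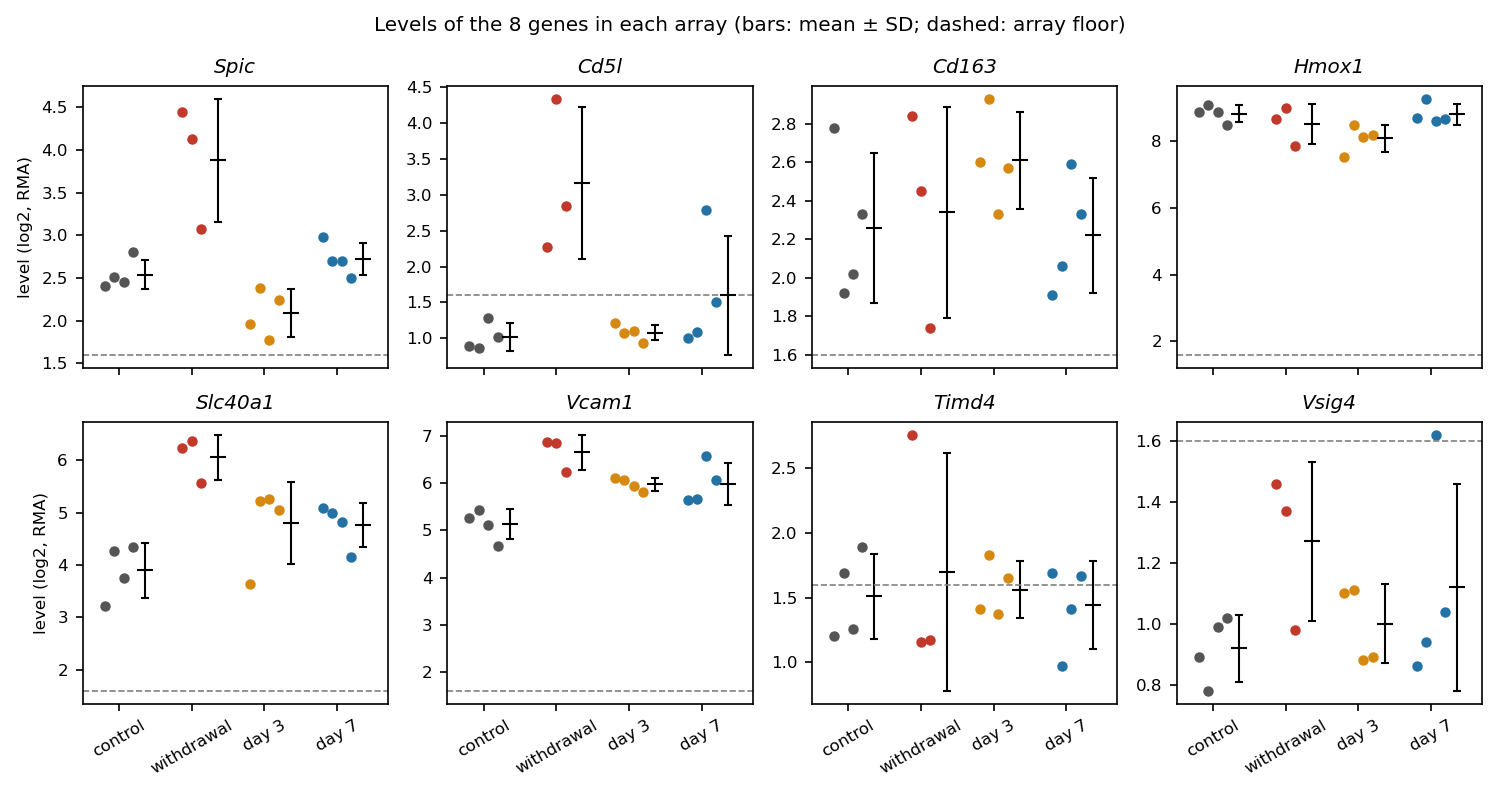
Log2 level of each of the 8 genes by array and group, with mean ± SD in black and the array floor of 1.60 dashed; each panel has its own axis, and levels are not comparable between panels. The withdrawal points of Spic, Slc40a1, Vcam1 and Cd5l lie above all controls, and all points of Vsig4 but 1 lie under the floor. The share of all genes that separate in this way was not counted.

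The calls at withdrawal held with each of the 7 arrays left out in turn, with adjusted p up to 0.0448 for Spic, 0.0459 for Cd5l, 0.0318 for Slc40a1 and 0.0127 for Vcam1, each without withdrawal replicate 2. In a fit of the control and withdrawal arrays alone Spic had an adjusted p of 0.054, and the other 3 passed.

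By day 3 after withdrawal Spic and Cd5l had fallen, and no member rose. Of all genes 0.886% were called lower and 1.37% higher in this comparison, which shares its withdrawal arrays with the one before. Spic read 1.96, 2.38, 1.77 and 2.24 at day 3, below every withdrawal array and, in each case, below the lowest control of 2.41. Against withdrawal it fell by 1.79 ± 0.25 log2, or 3.46-fold (adjusted p = 0.00183). Against control the difference was -0.45 (interval from -0.95 to 0.04, adjusted p = 0.544), and thus not past the threshold although the groups do not overlap. Cd5l was back at the floor on all 4 arrays (1.22, 1.07, 1.10 and 0.94), a fall of 2.08 ± 0.42 log2 (adjusted p = 0.0189). That call was lost without withdrawal replicate 2 (adjusted p = 0.0795) and in a fit of the withdrawal and day 3 arrays alone (adjusted p = 0.0699).

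Slc40a1 and Vcam1 stood between their withdrawal and control levels at day 3. Slc40a1 read 3.63, 5.23, 5.26 and 5.06, and day 3 replicate 1 stood far below the other 3. Its difference from withdrawal was -1.26 ± 0.38 (adjusted p = 0.112) and that from control 0.90 ± 0.35 (adjusted p = 0.395). Vcam1 read 6.12, 6.08, 5.94 and 5.81, tightly grouped, all above the highest control of 5.44 and below the lowest withdrawal array of 6.23. Neither of its differences passed, with -0.67 ± 0.23 against withdrawal (adjusted p = 0.172) and 0.85 ± 0.21 against control (adjusted p = 0.136). Hmox1 had its lowest group mean here, 8.09 ± 0.40 (SD, n = 4), from arrays at 7.53, 8.48, 8.13 and 8.20. It differed from control by -0.74 ± 0.24 (adjusted p = 0.289). Cd163 had its highest, 2.61 ± 0.25, but within the range of the controls on 3 of the 4 arrays. Of the 8, 0 passed in day 3 against control, where 0.0886% of genes were called higher and 0.042% lower. At an unadjusted p under 0.05 there were 3 (Hmox1, Slc40a1 and Vcam1).

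At day 7 Spic was lower than at withdrawal by 1.16 ± 0.25 log2 (adjusted p = 0.0266), the 1 of 8 members to pass in a comparison where 0.905% of genes were called lower and 0.98% higher. Its arrays read 2.98, 2.70, 2.70 and 2.50, of which replicate 1 lies above the highest control of 2.80 and the others inside the control range. The call was lost in 4 of 7 fits that left out 1 array, with an adjusted p of 0.112 without withdrawal replicate 1, 0.126 without withdrawal replicate 2, 0.0634 without day 7 replicate 2 and 0.0787 without day 7 replicate 4. Cd5l read 1.01, 1.09, 2.79 and 1.50, where 3 arrays were at the floor and day 7 replicate 3 lay between the lowest and the middle withdrawal array. It did not pass against withdrawal (-1.56 ± 0.42, adjusted p = 0.0805), and did so without day 7 replicate 3 (adjusted p = 0.0118) and without withdrawal replicate 1 (adjusted p = 0.041).

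Slc40a1 (5.09, 5.0, 4.83 and 4.16) and Vcam1 (5.65, 5.66, 6.58 and 6.07) kept intermediate means at day 7. Slc40a1 was 0.87 ± 0.35 above control (interval from 0.12 to 1.62, adjusted p = 0.787) and Vcam1 0.86 ± 0.21 (interval from 0.41 to 1.32, adjusted p = 0.539). All 4 day 7 arrays of Vcam1 exceeded all controls. Of the 8, 0 passed against control and 2 had an unadjusted p under 0.05, namely Slc40a1 and Vcam1. In this comparison 0.014% of all genes were called higher and 0.00466% lower. Hmox1 was back at 8.68, 9.27, 8.60 and 8.67, and differed from control by -0.02 (interval from -0.54 to 0.50). Day 7 against day 3 had 0 calls among all 21439 genes in limma (1516 had an unadjusted p under 0.05, and 3 genes were called with a filter on dim probe sets). The members with the largest differences there were Hmox1 at 0.72 ± 0.24 (unadjusted p = 0.0101, adjusted p = 0.515) and Spic at 0.63 ± 0.23 (unadjusted p = 0.016, adjusted p = 0.554).

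In order of group mean, Spic ran from day 3 through control and day 7 to withdrawal, and only the last step, from day 7 to withdrawal, passed among neighbours. Slc40a1 and Vcam1 ran from control through the 2 recovery groups to withdrawal, with no step between neighbours past the threshold. For Slc40a1 day 7 and day 3 differed by -0.02 (interval from -0.77 to 0.73) and for Vcam1 by 0.01 (interval from -0.45 to 0.46). Cd5l ran from control and day 3, which differed by 0.07, through day 7 to withdrawal, and the last step missed the threshold. No step of Cd163, Hmox1, Timd4 or Vsig4 passed.

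**Figure D2:**
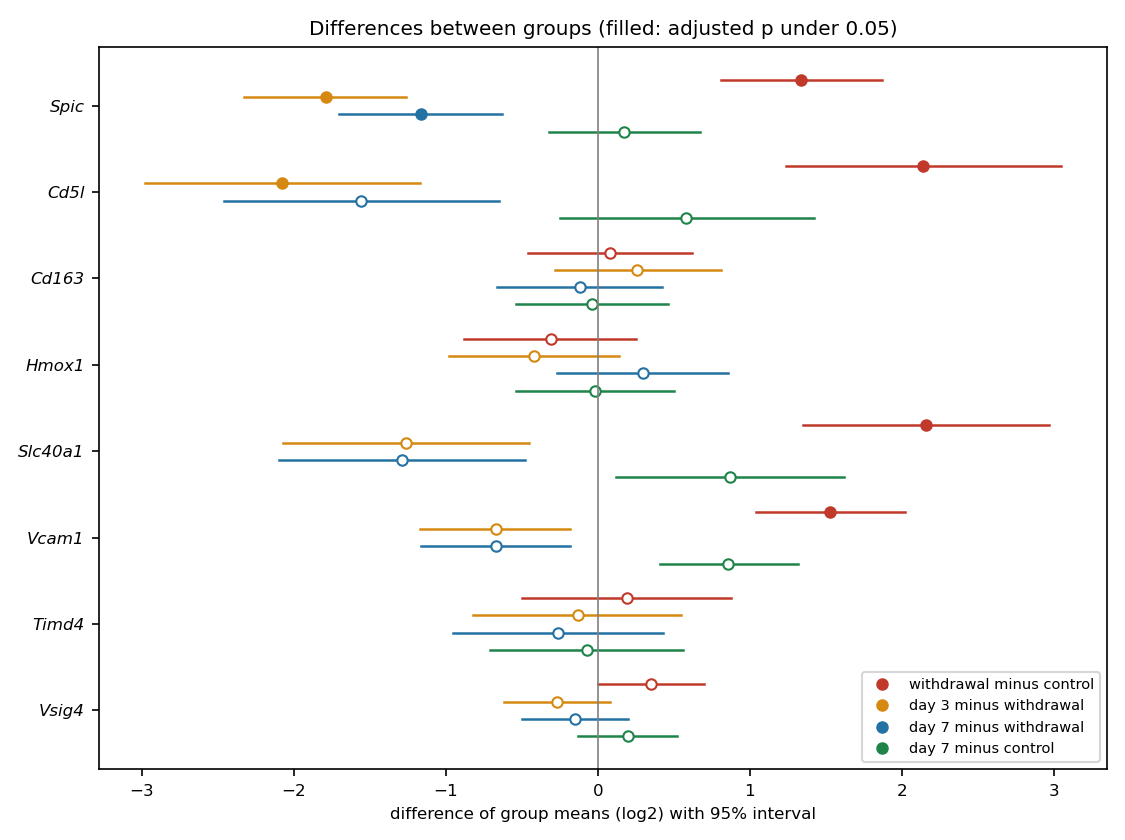
Difference of group means in log2 for each gene with its 95% interval from limma, in 4 comparisons; filled points have an adjusted p under 0.05. Spic, Cd5l, Slc40a1 and Vcam1 are filled for withdrawal minus control, and the intervals of Slc40a1 and Vcam1 at day 7 minus control lie above 0 with open points.

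Macrophage genes as a whole were also higher at withdrawal. More cells of a type, more RNA per cell and a larger share of a shrunken gland cannot be told apart in whole-gland RNA. Of 14 general macrophage genes 11 rose at withdrawal and 0 fell, with a median of 1.05 log2, among them Cd68 (2.29 ± 0.30), a lysosomal protein, Mpeg1 (1.77 ± 0.21), a pore-forming protein, the protease Ctss (1.52 ± 0.20) and Laptm5 (1.33 ± 0.19). The mean of the list ran from 5.85 to 5.93 in control, 6.84 to 7.07 at withdrawal, 6.05 to 6.63 at day 3 and 6.07 to 6.58 at day 7. The members were therefore also fitted as a ratio within each array, the gene minus the mean of these 14. Such a ratio shows unequal change, not which side moved.

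By this ratio Slc40a1 rose by 1.10 ± 0.30 log2 more than the macrophage list at withdrawal (limma, adjusted p = 0.00134) and Cd5l by 1.07 ± 0.34 more (adjusted p = 0.00472). Of all genes 0.238% outran the list. Larger rises were found among 10 genes of lipid-laden macrophages, whose mean went from 4.57 in control to 7.21 at withdrawal. A rise beyond the general list was thus not particular to these members. The Cd5l value was 0.53 (adjusted p = 0.107) without withdrawal replicate 2. Spic did not differ past the threshold from the list (0.27, interval from -0.19 to 0.73, adjusted p = 0.241), nor did Vcam1 (0.46, interval from -0.01 to 0.93, adjusted p = 0.0562). Spic did pass without withdrawal replicate 3 (adjusted p = 0.00963), and Vcam1 without control replicate 1, control replicate 2 or withdrawal replicate 3 (adjusted p = 0.0473, 0.0315 and 0.0275). Cd163 fell behind the list by 0.99 ± 0.23 and Hmox1 by 1.38 ± 0.24, but 95.6% of all genes did so, as the list is one of rising genes.

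Between withdrawal and day 3 Spic and Cd5l dropped further than the macrophage list, whose mean fell by 0.66. Spic differed from it by -1.13 ± 0.22 (adjusted p = 0.000899) and Cd5l by -1.42 ± 0.34 (adjusted p = 0.00249), and both calls held in all 7 fits with 1 array left out. Of all genes, 0.131% were called lower against the list and 81.1% higher. Spic minus the list read -2.55, -2.93 and -3.76 at withdrawal and -4.10, -4.25, -4.36 and -4.16 at day 3, so that these arrays did not overlap, while the controls lay between -3.44 and -3.14. Slc40a1 (-0.60, adjusted p = 0.0632) and Vcam1 (-0.01, interval from -0.48 to 0.46) did not depart from the list past the threshold. Cd163 gained on it by 0.93 ± 0.23, like most genes.

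At day 3 against control Spic lagged the list by 0.86 ± 0.21 (adjusted p = 0.024) and Hmox1 by 1.14 ± 0.23 (adjusted p = 0.00995), where 22.8% of genes were called lower and 0.247% higher, so that lagging was common. Both calls were lost with the resident macrophage list as reference (adjusted p = 0.193 and 0.101), and that of Spic in 4 of 8 fits without 1 array (control replicate 1 or 4, day 3 replicate 2 or 4; adjusted p from 0.0501 to 0.0886). At day 7 against withdrawal Cd5l dropped by 0.87 ± 0.34 more than the list (adjusted p = 0.0228), where 0.182% of genes were called lower and 84.2% higher, but the call was lost without withdrawal replicate 2 (-0.33, adjusted p = 0.331), day 7 replicate 1 (adjusted p = 0.0803) or day 7 replicate 2 (adjusted p = 0.0633). Hmox1 (0.99, adjusted p = 0.00221), Cd163 (0.57, adjusted p = 0.0284) and Vsig4 (0.54, adjusted p = 0.0127) were called higher against the list in that comparison, as most genes were, Vsig4 from readings at the floor. The Cd163 call held in 4 of 7 fits without 1 array (adjusted p up to 0.21) and that of Vsig4 in 6 of 7 (up to 0.0561). Both were lost with the resident macrophage list as reference (adjusted p = 0.123 and 0.0808). Of the 8, 0 passed by this ratio at day 7 against control (background 0.0187% higher and 0.182% lower) or against day 3 (0.00466% higher and 0.0233% lower). The smallest p-values there were those of Vcam1 against control (0.48 ± 0.21, unadjusted p = 0.0306) and Hmox1 against day 3 (0.75 ± 0.23, unadjusted p = 0.00296).

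**Figure D3:**
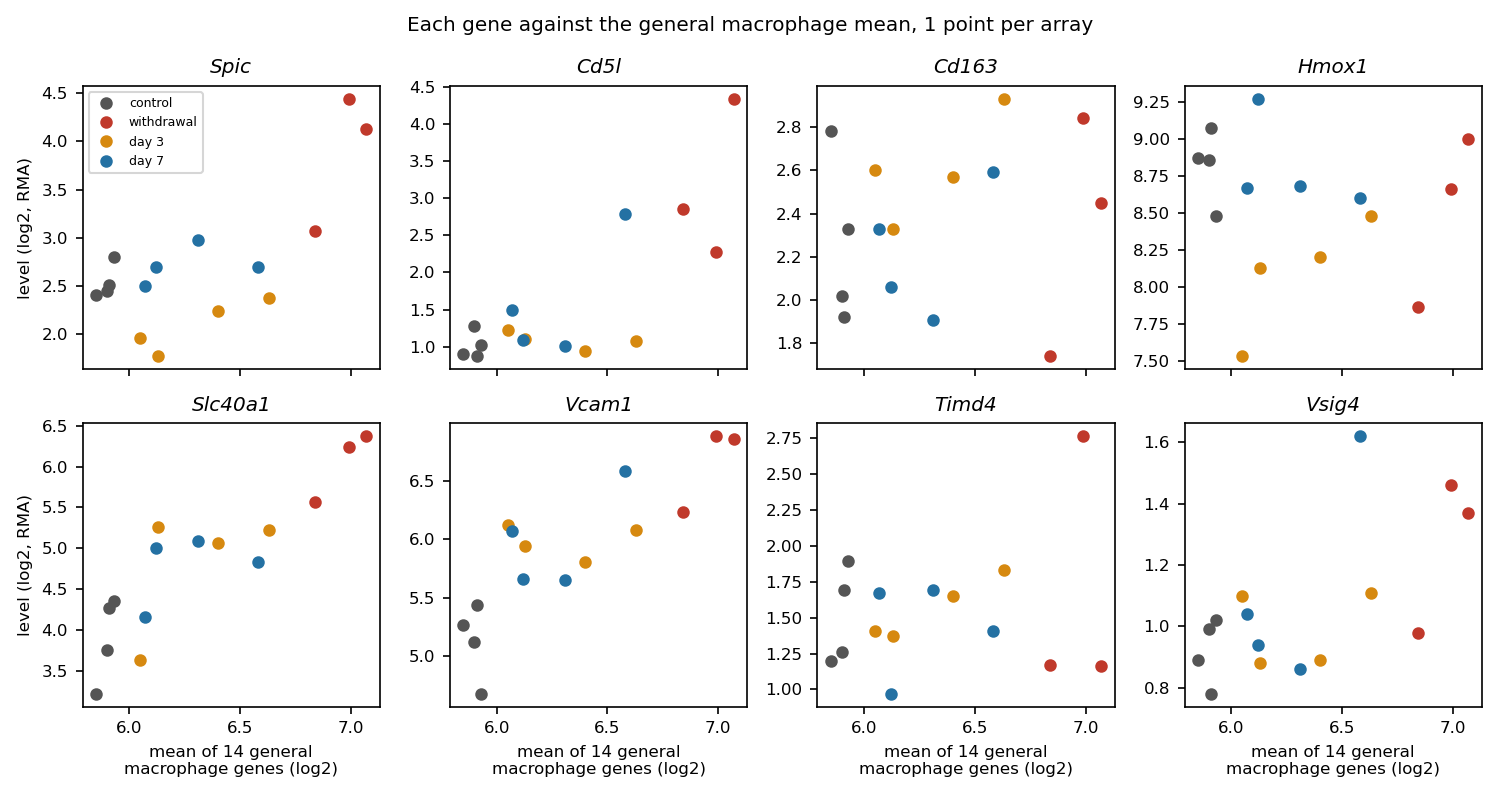
Log2 level of each gene against the mean of 14 general macrophage genes, with 1 point per array and colours for the groups; axes differ between panels. Slc40a1 climbs with the macrophage mean over the 15 arrays (r = 0.88), Spic at day 3 lies under the controls at a higher macrophage mean, and Hmox1 shows no slope (r = -0.10).

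As a description over the 15 arrays, the correlation with the macrophage mean was 0.88 for Slc40a1, 0.84 for Vcam1, 0.79 for Cd5l, 0.72 for Spic, 0.65 for Vsig4, 0.26 for Timd4, 0.22 for Cd163 and -0.10 for Hmox1. Once group means were removed it ran from 0.26 (Timd4) to 0.55 (Slc40a1 and Vsig4), a narrower range than that of the pooled values. The points share arrays and normalization. Among the members, Spic and Slc40a1 had r = 0.68 (0.51 within groups), Spic and Cd5l 0.69 (-0.06 within groups), Cd5l and Vcam1 0.73 (0.53 within groups) and Vcam1 and Vsig4 0.71 (0.69 within groups). Spic and Cd5l were both above all controls in the 3 withdrawal arrays but ranked them differently: Spic was highest in withdrawal replicate 1 and Cd5l in replicate 2.

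Of 34 other genes of heme and iron handling, 32 were measured and 30 were above the floor in at least 1 group. At withdrawal 3 rose, 0 fell and 29 did not pass, beside 2.49% higher and 1.81% lower among all genes, and the median gene of the list differed by 0.07. Slc11a1, a metal transporter of the macrophage phagosome, read 3.00, 3.24, 3.23 and 2.45 in control and 4.64, 5.36 and 4.50 at withdrawal, a rise of 1.85 ± 0.27 log2 (adjusted p = 0.00128). Cp, the ferroxidase ceruloplasmin that works with ferroportin, rose by 0.75 ± 0.12 (adjusted p = 0.00187), from 7.33 to 8.08, and Slc39a8, a metal importer, by 0.69 ± 0.15 from 1.28, at the floor. By day 3 Slc11a1 had fallen by 1.16 ± 0.27 and Cp by 0.60 ± 0.12. Other steps of the route did not pass: the heme transporter Slc48a1 differed by -0.25 (adjusted p = 0.495), the biliverdin reductases Blvra and Blvrb by 0.16 and 0.15 (adjusted p = 0.612 and 0.711), the constitutive heme oxygenase Hmox2 by 0.19 (0.465), the ferritin heavy chain Fth1 by 0.02 (0.925) and haptoglobin, Hp, by 0.57 (0.559). The transferrin receptor Tfrc differed by -0.80 (adjusted p = 0.188), with 4.86, 4.99 and 5.03 at withdrawal, all under the lowest control of 5.40. Hepcidin, Hamp, which makes cells take in and degrade ferroportin, was at the floor in control and withdrawal means (0.81 and 1.24).

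**Figure D4:**
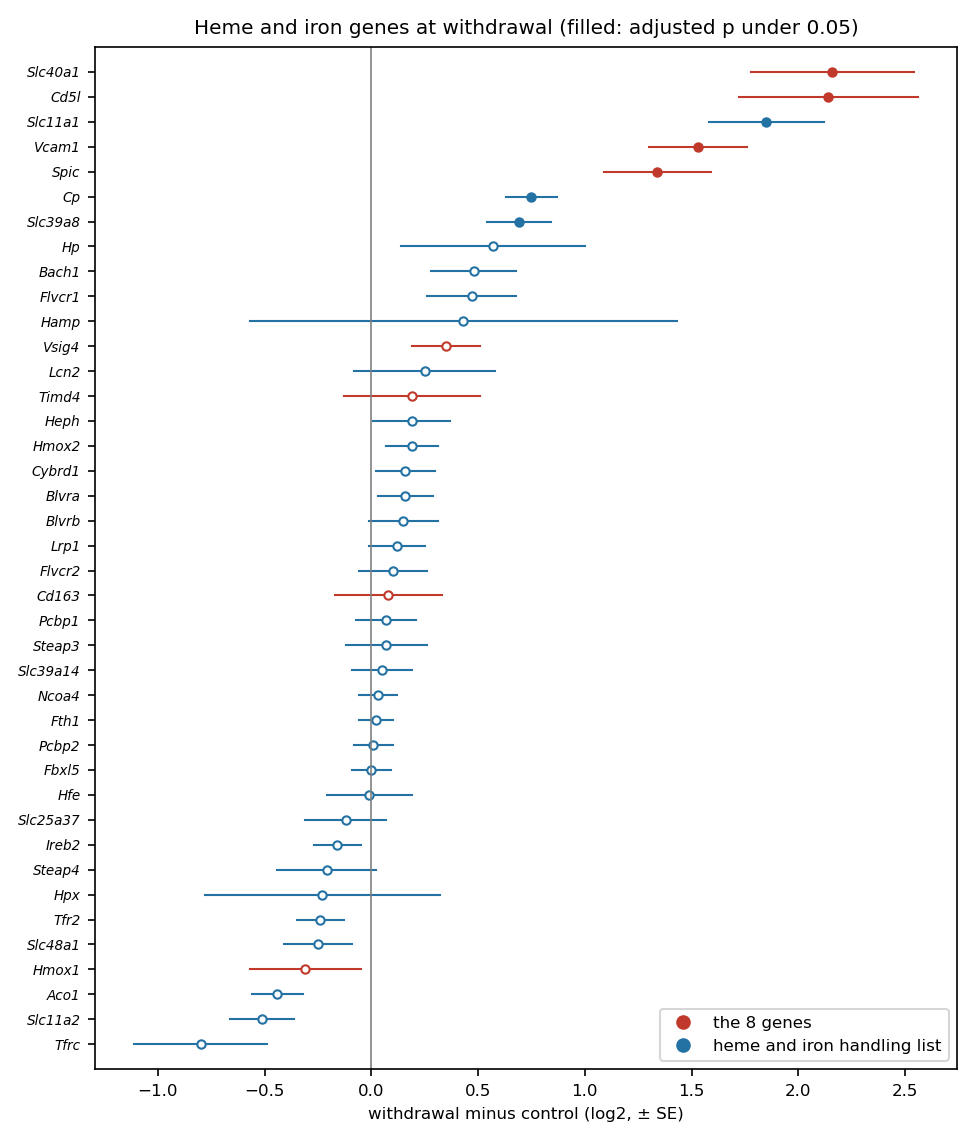
Withdrawal minus control in log2 ± SE for the 8 genes (red) and 32 genes of heme and iron handling (blue); filled points have an adjusted p under 0.05. Filled points are Slc40a1, Cd5l, Slc11a1, Vcam1, Spic, Cp and Slc39a8, all higher at withdrawal, and Hmox1 lies near the lower end with an open point.

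Hmox1 is a target of NRF2 and of the repressor BACH1. Of 11 further measured targets of these factors 0 rose and 2 fell at withdrawal, Osgin1 by 0.97 ± 0.21 and the malic enzyme Me1 by 0.65 ± 0.12, with a median of 0.00. At day 3 against withdrawal 0 of the 11 passed. Bach1 itself differed by 0.48 (adjusted p = 0.24) at withdrawal.

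Cd5l is a target of the oxysterol receptor LXR, and of 9 measured LXR targets 4 rose and 0 fell at withdrawal: Mertk, a receptor for dying cells (1.38 ± 0.30), Abcg1 (1.01 ± 0.27), Mylip (0.92 ± 0.25) and Apoe (0.76 ± 0.13). The cholesterol exporter Abca1, a further target, fell by 1.08 ± 0.20 from withdrawal to day 3. The median of the list was 0.10 at withdrawal, beside 2.49% of all genes called higher and 1.81% lower. Of the targets that did not pass there, Scd1 differed by -0.57, Abca1 by -0.51, Srebf1 by -0.43, Lpcat3 by -0.23 and Nr1h3 by 0.10. Activity of LXR was not tested.

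Among 27 measured genes of resident macrophages 9 rose at withdrawal, 0 fell and 18 did not pass (median 0.50). The largest were the lectin Clec4n (2.19 ± 0.33), Mertk, Igf1 (1.10 ± 0.17) and the complement subunit C1qa (1.01 ± 0.18). At day 3 against withdrawal 6 fell and 0 rose, led by Treml4 (-1.22 ± 0.17), a receptor of splenic macrophages, Siglec1 (-0.89 ± 0.17), Igf1 (-0.81 ± 0.17) and C1qb (-0.80 ± 0.16). With the mean of this list as the reference for the ratio, Spic and Vcam1 did rise further than the reference at withdrawal (0.75, adjusted p = 0.00493, and 0.94, adjusted p = 0.00141). This reference itself rose less, from 4.02 to 4.61, than the general list, from 5.9 to 6.96, so that it is more easily outrun. The share of all genes that outran it was not counted. Of 21 genes for the uptake of dying cells 4 rose at withdrawal, namely Mertk and the 3 subunits of C1q. C1qb rose by 0.94 ± 0.16 and C1qc by 0.59 ± 0.11. At day 3 C1qa, C1qb and the bridging ligand Gas6 (-0.54 ± 0.12) were lower than at withdrawal. Among lipid-laden macrophage genes 6 of 10 rose at withdrawal. The largest rises were those of Gpnmb (7.63 ± 0.82), Atp6v0d2 (5.77 ± 0.81), Mmp12 (3.79 ± 0.39) and Trem2 (2.96 ± 0.34). At day 7 against control Atp6v0d2 (3.03, limma, adjusted p = 0.539) and Trem2 (0.81, adjusted p = 0.779) did not pass. Gpnmb, by 5.28 ± 0.76, and Mmp12, by 2.56 ± 0.36, were called above control there (adjusted p = 0.0362 for each). Both calls were lost where 0 genes were called in this comparison, that is with the replicate block, in a fit of those 2 groups alone, and without control replicate 4, day 7 replicate 3 or day 7 replicate 4. Gpnmb read 3.78 on day 7 replicate 2 and 7.19 to 8.98 on the others. In the same comparison Spic stood at 0.17 ± 0.23 (adjusted p = 0.96).

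Of 13 measured regulators of macrophage identity 4 rose at withdrawal: Klf4 (1.07 ± 0.25), Spi1 (0.72 ± 0.15), which encodes the ETS factor PU.1 related to SpiC, Klf2 (0.66 ± 0.13) and Id3 (0.64 ± 0.14). Klf2 was lower again at day 3 (-0.58 ± 0.13). Spi1 had a mean level of 4.18 both in control and at day 7, with 4.90 at withdrawal and 4.45 at day 3. Spib, the third gene of that ETS subfamily, read 1.41, 0.94 and 0.92 at withdrawal, all at the floor.

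Vcam1 binds the integrin of Itga4 and Itgb1 on leukocytes and has a source in endothelium. Of 11 genes of leukocyte adhesion 2 rose at withdrawal, the leukocyte genes Itgb2 (2.27 ± 0.31) and Selplg (1.50 ± 0.32). Of 14 endothelial genes 2 fell, 0 rose and 12 did not pass at withdrawal, Aplnr by 1.35 ± 0.27 and Kdr by 0.77 ± 0.17, and at day 3 against withdrawal 4 rose, Aplnr by 1.86 ± 0.27, Erg by 1.08 ± 0.20, Icam2 by 0.82 ± 0.13 and Pecam1 by 0.39 ± 0.08. The endothelial mean ran from 5.97 to 6.15 in control and from 5.64 to 5.73 at withdrawal. The part of endothelium in the Vcam1 readings was not tested.

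For the 7 members above the floor in at least 1 group, so without Vsig4, the most similar genes were taken as the 3 of highest Pearson correlation over the 15 arrays among about 9910 genes with a group mean over 3. For Spic they were Lst1 (r = 0.91), a leukocyte transcript of the MHC region, Fxyd1 (0.91) and Spink4 (0.90), the last with a withdrawal mean of 4.02 and the other 3 group means between 1.15 and 1.24. For Cd5l they were Apoe (0.90), the Fc receptor Fcgr3 (0.90) and Rims2 (0.89). Apoe and Fcgr3 tracked Cd5l also within groups (0.91 and 0.88). For Slc40a1 they were Ahnak (0.92), the leukocyte surface protein Cd48 (0.90) and Layn (0.90), and for Vcam1 Tmem71 (0.95), the calcium channel Trpv2 (0.92) and Cplx2 (0.92). Hmox1 was most like Sqstm1 (0.89), which encodes the autophagy receptor p62, then Hectd3 (0.85) and Kcnh2 (0.84). Cd163 was followed by Prim1 (0.88), Ttyh3 (0.79) and Ap2s1 (0.76), and Timd4 by Faf1 (0.82), Dctn6 (0.78) and Pf4 (0.76). The group means of Timd4 lay at or near the floor, and those of Faf1 (5.77 to 5.82) and Dctn6 (7.8 to 7.88) hardly moved. A top rank among so many genes on 15 arrays can carry a high r without any link.

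Spleen and liver hold macrophages that express these genes, and markers of tissue from outside the gland were read on the same arrays. The 6 measured B cell genes had array means from 0.94 to 1.24, under the floor on every array. The 4 red cell genes measured here (the embryonic globin gene Hbb-y, Klf1, Slc4a1 and Epb42; the adult globin genes were not analysed here) had array means from 1.11 to 1.48, and of the 4 only Klf1, at day 3 (mean 1.72), passed the floor. The Kupffer cell lectin Clec4f was at the floor on every array, with values of 0.97, 0.62 and 1.01 at withdrawal. Liver genes varied: their mean ran from 2.93 to 3.05 at withdrawal, inside the control range of 2.21 to 5.06, and from 2.73 to 6.76 at day 3. The highest value, 6.76, was on day 3 replicate 1, which also had Hamp at 5.98 and the lowest day 3 readings of Slc40a1 (3.63) and Hmox1 (7.53). Other arrays with high liver means went both ways. Slc40a1 was highest of its group on control replicate 4 and day 7 replicate 1 (liver means 5.06 and 5.19), but lowest on day 7 replicate 4 (4.87). Hmox1 was lowest of its group on control replicate 4, but highest on day 7 replicate 2 (4.64). Hamp read 3.29 and 2.92 on day 7 replicates 1 and 2. None of the 5 liver genes passed at withdrawal or at day 3 against control. The part of liver RNA in those readings was not tested. As for the gland itself, the cortical genes Cyp11a1, Star, Cyp21a1 and Cyp11b1 had control means between 9.56 and 10.91. Of 6 cortical genes these 4 fell at withdrawal, Cyp21a1 by 1.26 ± 0.09, and Nr5a1 (-0.31, adjusted p = 0.165) and Hsd3b1 (-0.24, adjusted p = 0.353) did not pass. Of the remaining lists, 0 of 11 monocyte and neutrophil genes, 0 of 5 kidney genes, 0 of 6 adipocyte genes and 0 of 4 medulla genes passed at withdrawal, and 1 of 5 T cell genes did, Cd4 (0.72 ± 0.17, from 1.22 to 1.93). With 2.49% of all genes called higher and 1.81% lower, a count of 0 in lists this short sets none of them apart.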

How the data were processed

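The authors deposited log2 expression values of whole adrenal RNA on 15 arrays, and per the submitters' processing notes RMA was run in oligo. RNA was purified on columns, checked on a Bioanalyzer and labelled with the WT Pico kit, per the labels' protocols. Its version and filters are not given in the sources used. Values ran from -0.19 to 12.08 and array medians from 1.55 to 1.64. RMA as usually run sets arrays to a common distribution, which hides a shift of all genes. Precision is limited by how many arrays there are.

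Of 32736 probe sets, 22399 had 1 gene symbol, 1607 several and 8730 none. Entrez identifiers matched RefSeq (GRCm38.p6) for 22261, and 0 symbols changed. For the 807 genes with several probe sets the one of highest mean was kept. Limma 3.58.1 (R 4.3.3) fitted 21439 genes in 1 model of 4 groups with lmFit and eBayes. Benjamini-Hochberg adjustment ran over all genes in each comparison, with a threshold of 0.05. The fit was also run on simulated data with added differences and independent noise for each gene. Array effects shared by genes and the floor were not simulated. The members, lists and tests were chosen with earlier results of these data known. The text names the 8 members, up to 4 passing genes of each of 19 lists in 3 comparisons (withdrawal against control, day 3 against withdrawal, day 7 against control), those of largest difference, and the 3 genes most like each member. Genes of the heme and iron list named beyond that rule, and Bach1, Spib, Hamp, Clec4f and the red cell genes, were chosen after their values were seen. Lists hold genes in common, such as Mertk and C1qa. Replicate numbers did not pair arrays: of 21 same-numbered pairs 0 had a correlation of deviations over 0.1 (range -0.14 to 0.06). Alternatives were a replicate block, median centring, a further quantile normalization, a filter on dim probe sets, another probe set rule, trend and robust moderation, fits of 2 groups, and leaving out each array.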

Additional observations from a re-analysis of the deposited data

Results flagged for a closer look

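Of 24 sets of 4 arrays (8 genes in control, day 3 and day 7), 2 held an array that stood apart by Dixon's test at the 95% level, where chance gives about 1 in 20. Slc40a1 read 3.63 on day 3 replicate 1, against 5.06 to 5.26 on the others. Without that array its difference from control at day 3 was 1.29 (adjusted p = 0.0965) in place of 0.90 (adjusted p = 0.395). Hmox1 read 9.27 on day 7 replicate 2, against 8.60 to 8.68 on the others.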

How the results depend on the processing

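The 4 calls at withdrawal against control and the 2 of day 3 against withdrawal held with the replicate block, median centring, a further quantile normalization, the filter on dim probe sets, the probe set of largest variance and trend and robust moderation. No called difference of a member changed sign under any alternative run. With the replicate block the members called stayed at 4, 2 and 1 in the 3 comparisons with withdrawal, and it changed no other member call; the numbers did not pair arrays, so this fit is no paired analysis, and all genes called became 544, 257, 221, 4 (day 3 against control) and 0 (day 7 against control). Centring each array on its median shifted the all-gene median by -0.11 at withdrawal, turned the split of calls from 534 higher and 387 lower to 341 and 853, and gave 53 calls for day 3 against control; the further quantile normalization split the withdrawal calls into 421 higher and 462 lower. Under centring the 4 members that rose still differed by 1.23 (Spic) to 2.05 (Slc40a1). The dim filter called 2 members at day 7 against withdrawal (Cd5l joined, adjusted p = 0.0449) and 655 genes at day 7 against withdrawal, 85 at day 3 against control and 3 between the recovery days. Trend and robust moderation gave 91 genes for day 3 and 2 for day 7 against control. Fits of only 2 groups, which have fewer arrays, called 1 member at day 3 and 0 at day 7 against withdrawal, and 524, 161, 154, 9 and 0 genes in the order withdrawal against control, day 3 and day 7 against withdrawal, day 3 and day 7 against control; Spic at withdrawal had an adjusted p of 0.054. With the resident macrophage list as reference 0 members departed from it at day 3 against control, where 2 did from the general list. The stricter floor put 6 group means at the floor in place of 10.

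Leaving out 1 array, members called ranged from 4 to 4 at withdrawal against control, 1 to 2 at day 3 and 0 to 3 at day 7 against withdrawal, and were 0 in the other comparisons. The 0 at day 7 came without withdrawal replicate 2, day 7 replicate 2 or day 7 replicate 4. Genes called ranged from 459 to 774 at withdrawal (lowest without withdrawal replicate 2), 209 to 389 and 200 to 415 at day 3 and day 7 against withdrawal (each lowest without withdrawal replicate 2), 6 to 27 and 0 to 9 at day 3 and day 7 against control, and 0 to 7 at day 7 against day 3. Members that departed from the macrophage list ranged from 4 to 8 at withdrawal, 3 to 4 and 2 to 5 at day 3 and day 7 against withdrawal, and 1 to 4 at day 3 against control. The main limits are the 3 withdrawal arrays, the floor under Cd5l, Timd4 and Vsig4, and controls taken before treatment.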
